A study of Homo sapiens with 4 samples.

Results

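The 5 zinc finger genes ZNF695, ZNF670, ZNF669, ZNF124 and ZNF496 lie within 386.3 kb of each other in band 1q44, near the end of the long arm of chromosome 1. They were chosen by name and position, and what was measured is how much of each gene body lay in regions of histone H4 trimethylated at lysine 20 (H4K20me3). They are 5 of 556 protein-coding zinc finger genes and of 20163 protein-coding genes. The mark was located by ChIP-seq, in which fixed chromatin is pulled down with an antibody and its DNA is sequenced, in IMR90 cells, fibroblasts of human lung that stop dividing after many passages. The samples were proliferating cells (PRO, population doubling 32) and cells in replicative senescence (RS, population doubling 86), the lasting arrest reached after long passage. Each state had 2 samples, 1 for each of 2 antibodies, and both states were grown in low oxygen and fixed with formaldehyde.

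Time in culture goes with the state in this model, and the study describes the antibodies as used in separate experiments, so antibody and experiment cannot be told apart. For each state the files give 1 list of peaks, the intersection of the sets called with each antibody. A further list held the regions that DiffBind, a tool that compares read counts in peaks between conditions, called different between RS and PRO (DiffBind peaks). The lists hold positions and no values per sample, so no error between replicates and no p-value can be given for any difference. The direction of a DiffBind peak is not in its list. The study reports higher enrichment in RS than in PRO cells for the vast majority of its differential peaks, without naming single regions here. The PRO list held 2836 regions over 3.44 Mb, the RS list 35535 over 38.1 Mb and the DiffBind list 18711 over 34.6 Mb. Expression was not measured here, so cell type markers were not checked.

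H4K20me3 is a mark of constitutive heterochromatin that is written by the SUV420H enzymes, which bind near nucleosomes already methylated at lysine 9 of histone H3. KRAB zinc finger genes code for DNA-binding repressors: a KRAB domain recruits the corepressor TRIM28, and a row of zinc fingers, usually coded by the last exon, reads the DNA sequence. Genes of this family stand in clusters and are known to carry heterochromatin marks over their own finger-coding exons.

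All 5 genes are transcribed from the minus strand (hg19, annotation of GENCODE 44). ZNF695 (ENSG00000197472.15) spans chr1:247108849-247171395, or 62.5 kb, and is a KRAB zinc finger gene whose main transcript takes up 22.7 kb at its 5′ end. ZNF670 (ENSG00000277462.2) spans chr1:247197939-247242113, or 44.2 kb, and its record is also joined to ZNF695 in a readthrough gene. ZNF669 (ENSG00000188295.15), the shortest, spans chr1:247263264-247267674, or 4.41 kb. ZNF124 (ENSG00000196418.13) spans chr1:247285277-247335322, or 50.0 kb, of which the main transcript takes up 17.0 kb. ZNF496 (ENSG00000162714.13), a SCAN domain zinc finger gene whose product is known to bind the methyltransferase NSD1, spans chr1:247460714-247495169, or 34.5 kb. It stands apart in layout, with 10 exons in its main transcript where each of the other genes has 4. It also stands apart in position, 125.4 kb from ZNF124, whereas the other neighbours are 17.6 to 26.5 kb apart.

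The first zinc finger of each protein is shown as DNA because coverage of these finger-coding exons differed between the genes. Each unit is read 5′ to 3′ on the minus strand of GRCh37, and capitals mark the codons of the 2 cysteines and 2 histidines that hold the zinc ion. They lie at chr1:247150947-247151009 in ZNF695, chr1:247201546-247201608 in ZNF670, chr1:247264438-247264500 in ZNF669, chr1:247320492-247320554 in ZNF124 and chr1:247464214-247464276 in ZNF496.
ZNF695: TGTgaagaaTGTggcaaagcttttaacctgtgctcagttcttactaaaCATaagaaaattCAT
ZNF670: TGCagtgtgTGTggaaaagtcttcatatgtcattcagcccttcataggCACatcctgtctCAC
ZNF669: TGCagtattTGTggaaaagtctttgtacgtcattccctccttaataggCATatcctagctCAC
ZNF124: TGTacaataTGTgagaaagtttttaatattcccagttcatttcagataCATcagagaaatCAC
ZNF496: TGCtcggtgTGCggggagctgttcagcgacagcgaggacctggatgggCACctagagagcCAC
The units of ZNF670 and ZNF669 are the most alike of the 10 pairs, with 51 of 63 bases the same (81.0%). The ZNF669 unit lay wholly inside an RS peak and a DiffBind peak, and the ZNF670 unit lay in no region. The ZNF124 unit was also wholly inside both, and the units of ZNF695 and ZNF496 lay in no region.

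In PRO cells, 0 bases of the 5 gene bodies lay in a peak. The study reports much less overlap between the peaks of its antibodies in PRO than in RS cells. The intersected PRO list may therefore miss more. For comparison, 4.07% of coding genes of at least 2 kb and 29.9% of zinc finger genes of that size overlapped a PRO peak by at least 1 base. In RS cells, 4 of the 5 genes were overlapped, and 44237 of their 195635 bases (22.6%) were covered by 38 peaks. The background for RS was 21.7% of coding genes and 64.7% of zinc finger genes, so 4 of 5 is near the share of the whole family. DiffBind peaks overlapped the same 4 genes, with 19 regions over 42418 bases (21.7%), beside 19.1% of coding genes and 56.2% of zinc finger genes. ZNF496 held 0 covered bases in all 3 lists.

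**Figure D1:**
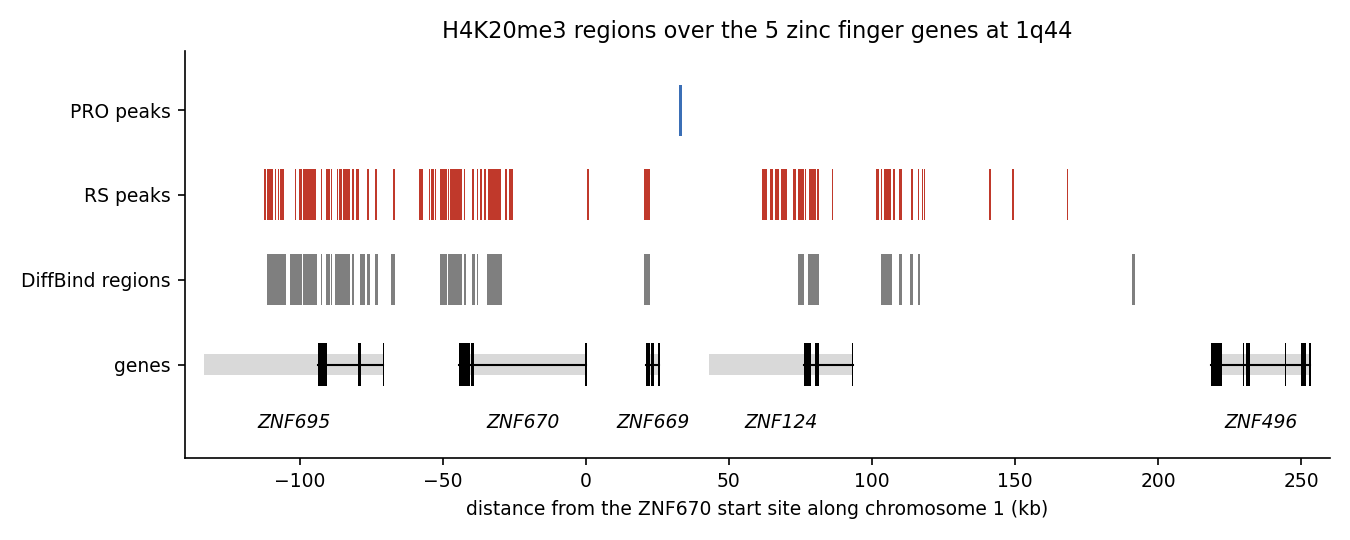
Map of the 5 genes, with distance from the ZNF670 start site in kb on the horizontal axis, and rows for PRO peaks (blue), RS peaks (red), DiffBind peaks (grey) and genes (pale bars are gene bodies, black boxes are exons of the main transcript, widened where needed to be visible). RS and DiffBind peaks fill the left and middle, the 1 PRO peak lies between ZNF669 and ZNF124, and ZNF496 at the right holds no region.

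Among the 4 covered genes the RS share of the gene body ran from 24.6% to 30.3%. On the longest coding transcripts it ran wider, from 22.3% in ZNF124 to 36.1% in ZNF695. ZNF669 had 30.3% of its body in RS peaks, all of it in 1 peak. ZNF695 had 30.1% in 18 peaks, which ranged from 201 to 4601 bp with a median of 601 bp. ZNF124 had 26.4% in 10 peaks of 401 to 2401 bp, and ZNF670 had 24.6% in 9 peaks of 401 to 4601 bp. With no replicate values, the order of these 4 shares cannot be set against an error.

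The DiffBind share varied more, from 11.6% to 43.2%. ZNF695 had 43.2% in 11 regions, ZNF669 30.3% in 1, ZNF670 18.7% in 5 and ZNF124 11.6% in 2. ZNF695 was thus higher in the DiffBind list than in the RS list, ZNF670 and ZNF124 were lower, and ZNF669 had the same 1338 bases in both. On the longest coding transcript alone, ZNF124 had 22.3% in each list (3804 bases in RS and 3801 in DiffBind peaks), which is above the 18.7% of ZNF670 in DiffBind peaks.

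**Figure D2:**
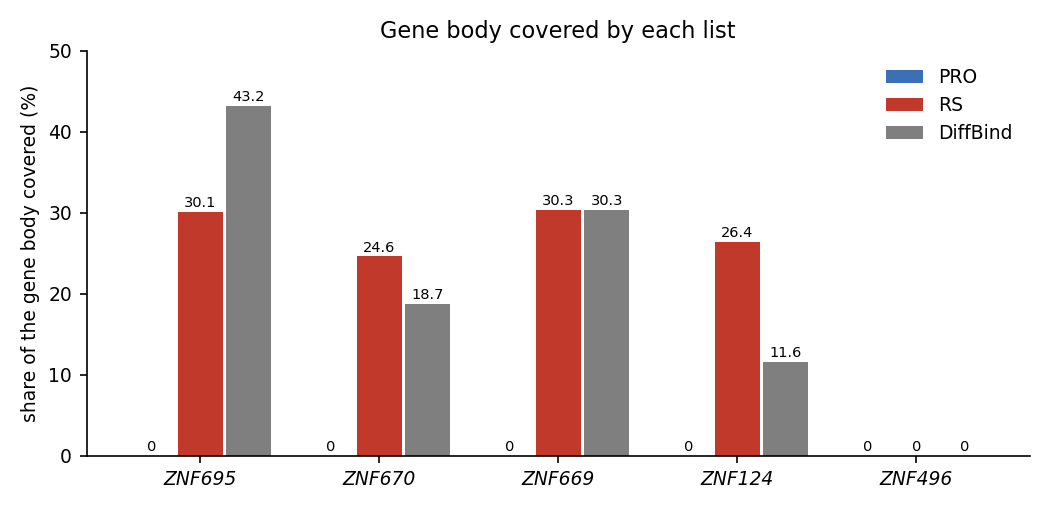
Share of each gene body covered (%), with bars from 0 for the PRO (blue), RS (red) and DiffBind (grey) lists, each bar being 1 list with no error. RS shares of 4 genes lie between 24.6% and 30.3%, DiffBind shares spread from 11.6% to 43.2%, and PRO shares and all ZNF496 shares are 0.

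The share of RS peak bases that also lay in DiffBind peaks differed between the genes as well. It was 91.5% in ZNF695, where 16 of 18 RS peaks lay wholly inside a DiffBind peak, and 100% in ZNF669. It was 65.0% in ZNF670, with 5 of 9 peaks inside, and 37.9% in ZNF124, with 3 of 10. Over all members 25 of 38 RS peaks lay inside a DiffBind peak, or 65.8%, where 44.8% of the RS peaks of the genome were overlapped by one. The peaks inside had a median length of 801 bp and those outside of 1001 bp. In the other direction, 18 of 19 DiffBind peaks held an RS peak. The exception was chr1:247163201-247165001 in ZNF695, a region of 1801 bp that covered the second exon of that gene and lay in neither the RS nor the PRO list.

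Coverage around the start sites of the 5 genes has no background, as start sites of other genes were not measured. No start site lay in a region of any list, and the first exon of each gene was uncovered. For ZNF496 and for the PRO list this follows from the 0 covered gene bases. Within 2000 bp of the start, RS peaks covered bases only at ZNF670, where a peak of 601 bp (chr1:247242601-247243201) stood 487 bp upstream. DiffBind peaks covered 42 bases there at ZNF695 and 0 at the other genes. Downstream of the start, the nearest RS peak was 2358 bp away in ZNF695, 3057 bp in ZNF669, 6721 bp in ZNF124 and 25512 bp in ZNF670. Of the RS bases inside the main transcript, the part beyond its midpoint held 70.7% in ZNF695, 89.5% in ZNF124 and 100% in ZNF670 and ZNF669. Over the whole gene body, which runs past the main transcript at the 3′ end of ZNF695 and ZNF124, the order turned in these 2 genes, with 74.5% of RS bases in ZNF695 and 67.4% in ZNF124 before the midpoint.

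**Figure D3:**
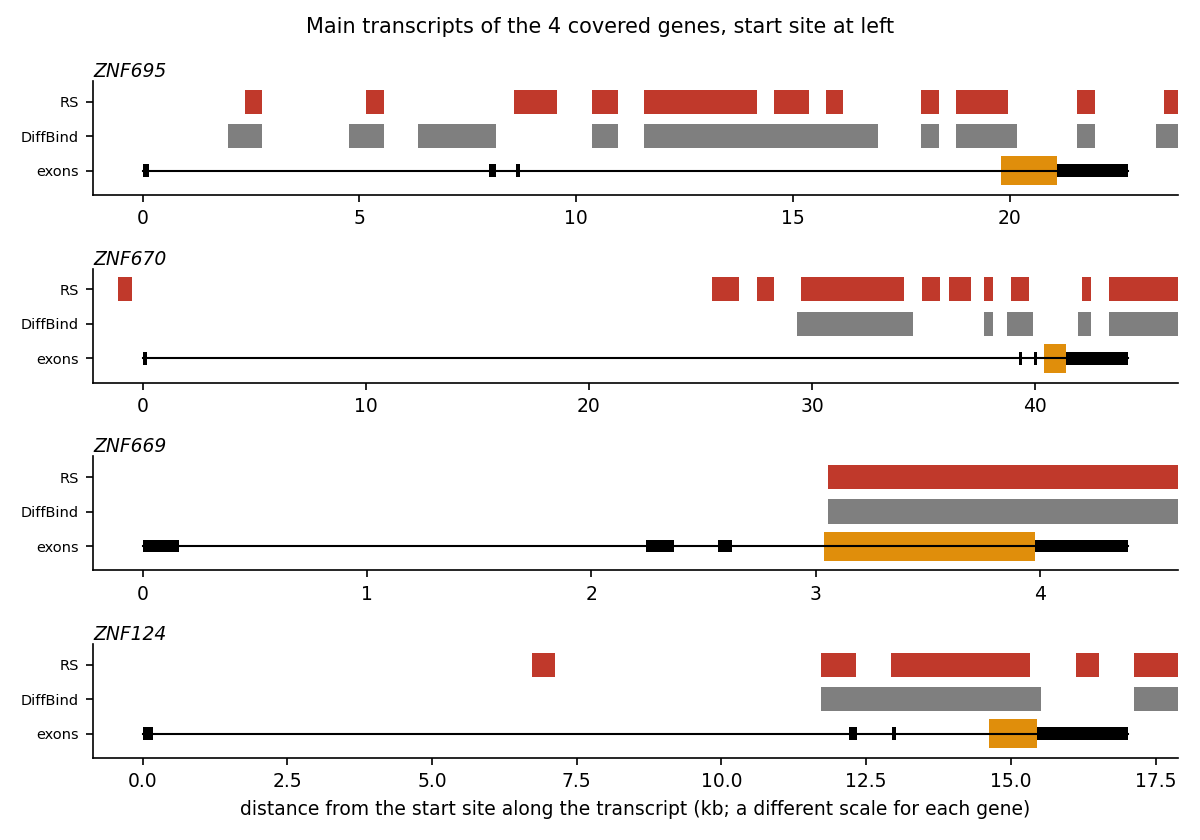
Main transcripts of the 4 covered genes from the start site at left, with distance in kb on a scale of its own for each gene, RS peaks in red, DiffBind peaks in grey, exons in black and the coding part of the last exon in orange. Red blocks lie over the orange box in ZNF669 and ZNF124, touch its 5′ edge in ZNF695 and leave it uncovered in ZNF670.

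Promoter sequences are shown for 3 genes to place the uncovered start sites: ZNF670, with the RS peak nearest upstream, ZNF124, a covered gene, and ZNF496, the uncovered one. Each is the 250 bases before the RefSeq start, found in GRCh37 by exact match (chr1:247242114-247242363, chr1:247335323-247335572 and chr1:247495170-247495419), read on the minus strand. Capitals mark GGGCGG, the core of a GC box, and CCAAT, searched on both strands.
ZNF670: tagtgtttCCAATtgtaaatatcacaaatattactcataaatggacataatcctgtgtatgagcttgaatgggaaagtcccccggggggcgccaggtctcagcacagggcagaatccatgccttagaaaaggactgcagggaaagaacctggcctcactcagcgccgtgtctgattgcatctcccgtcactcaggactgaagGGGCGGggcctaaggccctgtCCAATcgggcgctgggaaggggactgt
ZNF124: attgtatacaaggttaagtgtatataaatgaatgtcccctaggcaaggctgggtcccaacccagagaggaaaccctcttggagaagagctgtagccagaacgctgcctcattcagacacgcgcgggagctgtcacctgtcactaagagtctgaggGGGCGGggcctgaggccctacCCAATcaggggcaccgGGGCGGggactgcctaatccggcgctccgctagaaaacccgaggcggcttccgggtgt
ZNF496: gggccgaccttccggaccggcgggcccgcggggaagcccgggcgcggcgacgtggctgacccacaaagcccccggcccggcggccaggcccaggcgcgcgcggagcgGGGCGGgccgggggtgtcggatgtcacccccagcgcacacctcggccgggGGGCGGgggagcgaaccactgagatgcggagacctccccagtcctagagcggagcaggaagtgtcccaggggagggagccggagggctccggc
All 5 members matched a RefSeq promoter. GGGCGG occurred in 5 of 5, beside 42.6% of 35116 promoters of the same table, and CCAAT in 4 of 5, beside 32.01%. ZNF496 was the member without CCAAT in this window. The longer CCAATCAG, which contains CCAAT, occurred in ZNF695, ZNF669 and ZNF124, beside 3.81% of promoters. Such a match is a description of the letters and does not show a bound site.

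Over the finger-coding exons, which carry the DNA-reading part of each protein, the 4 covered genes fell into 2 pairs. ZNF669 codes for 9 fingers, and all 9 lay in the RS peak chr1:247262601-247264601, which is also a DiffBind peak. ZNF124 codes for 8 fingers, of which 6 were wholly and 1 partly inside an RS peak (84.9% of finger bases), and all 8 inside a DiffBind peak. In ZNF695 and ZNF670 the reverse was seen: 0 of 9 and 0 of 8 fingers touched a region of any list, although peaks stood on either side. The uncovered gap around the array was 1599 bp between RS peaks in ZNF695 and 2399 bp in ZNF670, and 1399 and 1999 bp between DiffBind peaks. None of the 75-base windows of the last coding exons occurred again in the genome in any of the 5 genes, 75 bases being the longer of the window sizes counted.

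The exons before the finger array, which code for the KRAB domain in genes of this layout, gave another order. In ZNF124 the second exon was 90.6% and the third 100% covered by RS peaks. In ZNF670 the second exon (127 bp) was 100% covered and the third (61 bp) was not. In ZNF695 the third exon (93 bp) lay in an RS peak and the second (163 bp) only in a DiffBind peak. In ZNF669 the exons before the last were uncovered. Of all RS bases in the 5 genes, 44.2% lay in introns, 45.2% outside the main transcript, 5.61% in untranslated parts of exons and 4.04% in the last coding exon.

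**Figure D4:**
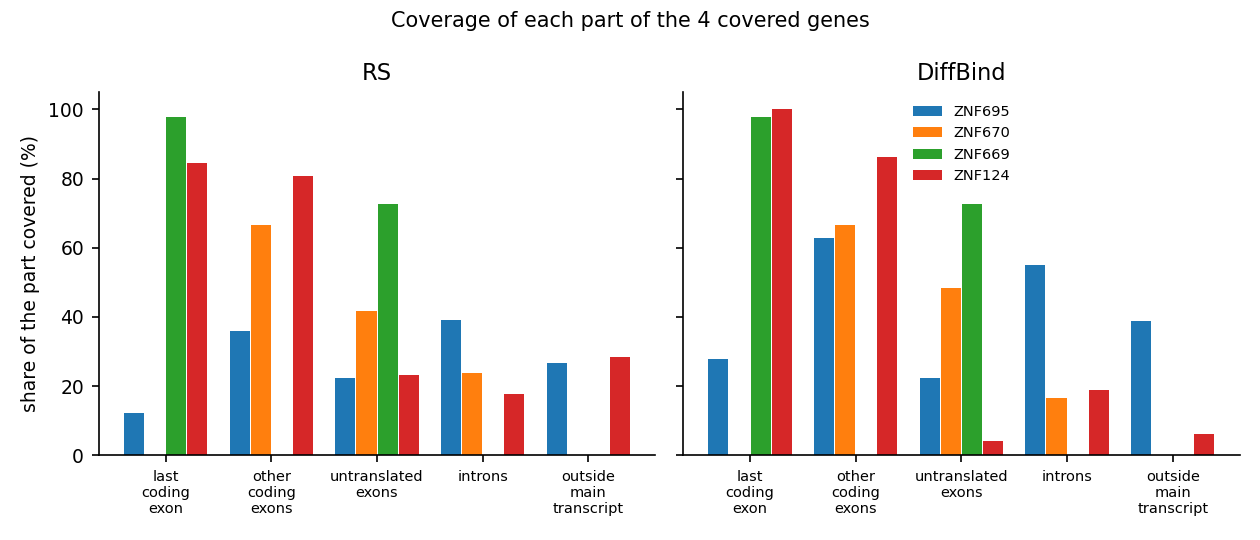
Share of each part of the 4 covered genes that lay in RS peaks (left) and DiffBind peaks (right), in %, with bars from 0 and no error; parts under 100 bp are not drawn. The last coding exon is high in ZNF669 and ZNF124 in both lists, is at 12.2% (RS) in ZNF695 and is at 0 in ZNF670, whereas introns are at 0 in ZNF669.

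The longest RS peaks of the genes, both of 4601 bp, lay outside the exons of the main transcripts. One was chr1:247143201-247147801 in ZNF695, beyond its main transcript, and the other chr1:247208001-247212601 in the last stretch of the first intron of ZNF670. Covered sequence had a higher G and C content than the rest of the gene in each of the 4 genes, at 45.5% against 41.2% in ZNF695, 44.4% against 40.1% in ZNF670, 43.6% against 42.9% in ZNF669 and 45.1% against 41.1% in ZNF124. The uncovered ZNF496 stood higher than these, at 48.4%.

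Reads from repeated sequence can be placed at any copy, so repeats under the regions were counted. Windows of 75 bases that occur again made up 1.26% of windows in RS peaks and 1.05% outside in ZNF695, 0.938% and 2.25% in ZNF670, 5.53% and 0% in ZNF669, and 1.82% and 14.6% in ZNF124. Regions with at least 1 repeated window were nevertheless common, at 30 of 58 RS and 20 of 26 DiffBind peaks of the span. In those RS peaks the number of repeated windows ran from 1 to 512. Dropping each region with any such window lowered the covered share from 22.6% to 8.49% in RS and from 21.7% to 2.15% in DiffBind, and took ZNF669 to 0 in both. Leaving out only the repeated bases themselves, an alternative chosen after seeing the data, gave 22.7% and 21.98%. The first of these on the longest coding transcripts alone, also chosen after seeing the data, gave 6.04% and 1.795%, with 2 genes left in the DiffBind list. PRO stayed at 0, as no PRO peak lay in the genes to be dropped.

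The stretch of RS peaks over the genes was bounded by longer gaps than any within it. It ran from chr1:247129601 to chr1:247410601, 281.0 kb with 58 RS peaks, of which 22.8% was covered. The previous RS peak was 137.4 kb away and the next 283.8 kb. Gaps between RS peaks elsewhere were not measured, so these distances have no background. Within the stretch the median gap between peaks was 799 bp and the longest 39.2 kb. Of chromosome 1 as a whole, 1.19% of sequenced bases lay in RS peaks, 1.07% in DiffBind peaks and 0.141% in PRO peaks. Between the first and last gene ends these shares were 16.6%, 15.2% and 0.207%.

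Between the genes, coverage was uneven. The 26.5 kb between ZNF695 and ZNF670 was 36.7% covered in RS, a higher share than in either gene. The covered bases came from 7 RS peaks of its own and part of another, chr1:247194801-247198801, which runs into ZNF670. The interval from ZNF670 to ZNF669 was 5.98% covered, that from ZNF669 to ZNF124 0%, and that from ZNF124 to ZNF496 7.03% in 12 peaks. The 1 PRO peak of the span, chr1:247274801-247275601, lay in the interval that RS peaks left empty, over the non-coding RNA gene LINC02897 and 7.13 kb from ZNF669. It was in neither the RS nor the DiffBind list.

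The other coding genes nearby were mostly uncovered, as were most coding genes of at least 2 kb. Of those, 21.7% overlapped an RS peak and 19.1% a DiffBind peak. On the ZNF695 side, SMYD3 (a lysine methyltransferase), TFB2M (a mitochondrial transcription factor), CNST, SCCPDH and AHCTF1 (a nuclear pore protein) had 0 bases in any list. VN1R5, a vomeronasal receptor gene between ZNF124 and ZNF496, also had 0. On the ZNF496 side, NLRP3, an inflammasome sensor, held 0.610% in a PRO peak and 0 in RS, OR2B11 and OR2G2 (olfactory receptors) held 0, GCSAML held 2.55% in RS and OR2C3 10.2%. The readthrough gene over ZNF670 and ZNF695 held 29.6% in RS and 32.4% in DiffBind peaks, and shares its bases with both. Of the 10 pseudogenes of the span, 3 were overlapped by RS peaks and 7 held 0 bases. Pseudogenes elsewhere were not measured, so this count has no background. The 3 overlapped were the processed pseudogenes ENSG00000215795, with 100% in RS and in DiffBind peaks, and ENSG00000215796, inside ZNF670, with 65.1% in RS and 0 in DiffBind peaks, and the zinc finger pseudogene ZNF731P, with 8.17% and 9.17%.

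Set among the 555 zinc finger genes of at least 2 kb by RS share, ZNF669 ranked 185, ZNF695 188, ZNF124 204 and ZNF670 217, while ZNF496 was 1 of 196 genes at 0. The median of these genes was 11.8% in RS, 5.30% in DiffBind and 0% in PRO, and that of the members was 26.4%, 18.7% and 0%. Among all 19011 coding genes, where the median was 0%, the 4 covered genes ranked 307 to 370. By DiffBind share the 4 genes were spread wider within the family, from 121 for ZNF695 to 253 for ZNF124.

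**Figure D5:**
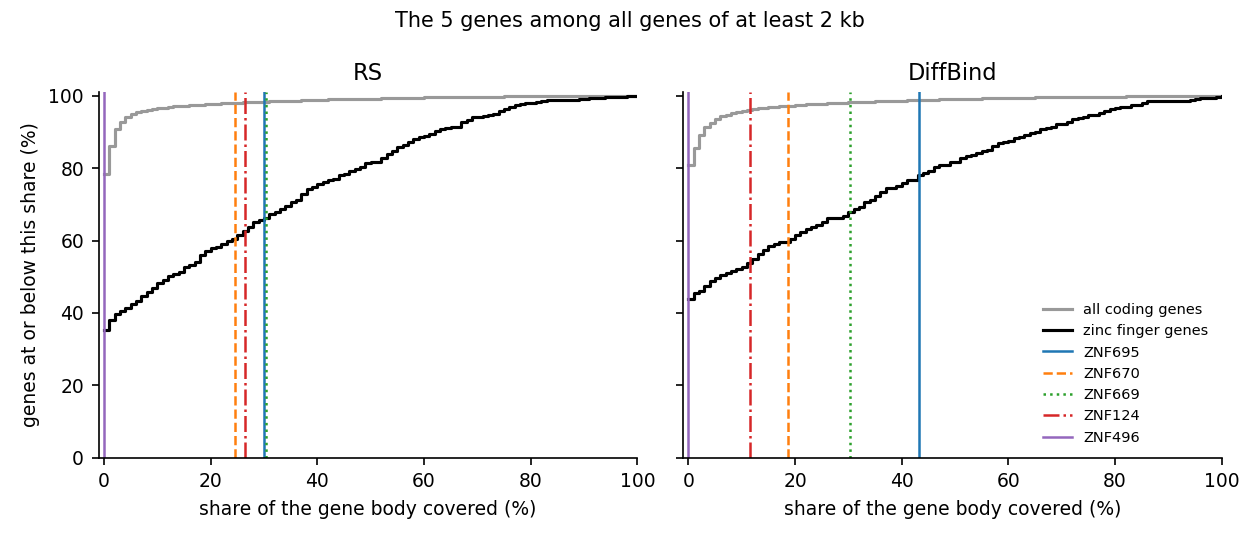
Share of genes (%, vertical axis) at or below each covered share of the gene body (%, horizontal axis) in RS (left) and DiffBind (right) lists, for zinc finger genes (black) and all coding genes (grey) of at least 2 kb, with a vertical line for each of the 5 genes. The 4 covered genes stand between 24.6% and 30.3% in RS and are spread from 11.6% to 43.2% in DiffBind, with ZNF496 at 0.

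The zinc finger genes most like each member were found by the distance between their 3 shares (PRO, RS and DiffBind), in percentage points. For ZNF670 the closest was ZNF267, at 0.420, then ZNF662 and ZNF846. For ZNF669 it was ZNF529 at 1.55, then ZNF182 and ZNF736, for ZNF124 ZNF610 at 1.95, then ZNF547 and ZNF404, and for ZNF695 ZNF676 at 2.58, then ZNF117 and ZNF232. ZNF496 was tied with 172 genes at 0 in all 3 lists, so none is named.

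Of the other 19 zinc finger genes of chromosome 1, 0 were overlapped in PRO, 6 in RS and 6 in DiffBind lists. The shares for all zinc finger genes of at least 2 kb were 29.9%, 64.7% and 56.2%. The 19 genes were not held to that minimum and include the shorter ZNF593, which held 0 bases. The median covered share of the 19 genes was 0% in each list. The highest RS shares were 64.7% in ZFP69B, 56.0% in ZFP69 and 53.9% in ZNF436, each above those of the 1q44 genes. A list of 18 genes of the silencing machinery was chosen for known roles in H4K20 and H3K9 methylation, heterochromatin and KRAB repression, and 0 of these were overlapped in PRO. RS peaks overlapped 3 of the 18 and DiffBind peaks 3, beside 21.7% and 19.1% of coding genes. These counts are too small to be told apart from those shares. The genes overlapped in RS were ATF7IP (3.06%), a partner of SETDB1, SETDB1 itself (1.04%), the H3K9 methyltransferase that works with TRIM28, and the remodeller ATRX (0.285%). Those in DiffBind were ATF7IP (3.50%), SUV39H1 (1.54%) and PPHLN1 (0.272%). The H4K20 methyltransferase genes KMT5B and KMT5C and the corepressor gene TRIM28 held 0 bases in any list.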

How the data were processed

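H4K20me3 ChIP-seq libraries of PRO and RS cells, 2 each, were used through 3 deposited lists. The unit of these files is other than a count or score: the columns used are start and end positions in bases. Per the labels and the study's methods, the authors aligned reads to hg19 with Bowtie2 2.1.0, called domains with SICER 1.1 in windows of 200 bp against total histone H4, intersected the domains of both antibodies, and compared states with DiffBind 1.8.3. The submitters' processing notes also name Trim Galore 0.3.0 and Picard 1.98. The sources name more than 1 count model for that last step, so it was not settled here. Fewer regions stand in the DiffBind list analysed than in the study's description of it. Intersection favours domains strong with both antibodies, and the lists give no signal height. Depth was not used here.

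Covered bases were computed from GENCODE 44 gene bodies on GRCh37 (Python 3.11.15, NumPy 2.4.6, pysam 0.24.0, numba 0.67.0), with overlap from 1 base and a minimum gene length of 2 kb for backgrounds. Symbols of zinc finger genes were ZNF, ZFP, ZSCAN or ZKSCAN and a digit. Interval and repeat counts were tested on simulated data. The members and lists were chosen with earlier results of these data known. Named genes are the members, coding genes in and next to the span (5 on each side), the 3 zinc finger genes closest to each member and the 3 other zinc finger genes of chromosome 1 with the highest RS share. Silencing-machinery genes, LINC02897 and pseudogenes are named outside this rule, after their values were seen. Alternatives changed the region length, region ends, joining of regions, gene extent and treatment of repeated sequence. Protein sequences were not used here.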

Additional observations from a re-analysis of the deposited data

How the results depend on the processing

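The 10 alternatives gave 206 values for 38 results, of which 174 stayed within the 95% binomial interval of the reported share, taking each window of 200 bp as a trial, or within 1.5 times the reported count or rank. The other 32 moved, and reversals were not scored. The interval covers counting error only. Many of the 174 values could not move, so their number does not measure stability. PRO and ZNF496 shares were 0 with no region in reach, and no region of the span was 1 base long. The set used for ranks grew only from 555 to 556 genes. The RS share of the 5 gene bodies (22.6%) was 17.7% with regions of at least 1000 bp, 30.5% with regions joined over gaps of up to 1000 bp, 19.7% on the longest coding transcripts and 8.49% without regions that hold a repeated 75-base window. The DiffBind share (21.7%) was 2.15% under the last of these. Combining the last 2 choices, added after seeing the data, gave 6.04% in RS and 1.795% in DiffBind, with 2 DiffBind genes in place of 4. Leaving out repeated bases alone, also added after seeing the data, gave 22.7% and 21.98%. That whole regions were dropped for any repeated window, whether few or many, is part of how the alternatives without such regions were built. PRO values were 0 under each alternative run and could not have been otherwise. The nearest PRO peak lay 7.13 kb from a member, farther than any alternative reached.

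No paired analysis was possible because the lists hold 1 merged set of positions for each group. For the same reason the alternatives that omit 1 antibody were not run. The lists limit these results to where regions were called, and a gap between peaks does not show that the mark was absent.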
